A study of Mus musculus with 2 samples.

Results

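The genes for the cytokines TNF and IL-6 and for their receptor chains were followed through single cells of the mouse colon lamina propria, the connective tissue beneath the gut epithelium. They are 6 of the 32285 genes in the matrices, taken by symbol: Tnf, Tnfrsf1a, Tnfrsf1b, Il6, Il6ra and Il6st. The study made 2 libraries, 1 titled Runx3_fl and 1 titled Runx3, from cells described as CD11b+, and compared mice carrying floxed Runx3 alleles plus a Lyz2-driven Cre with floxed littermates lacking Cre. Lyz2-Cre acts in macrophages, monocytes and neutrophils. The study describes pooled male mice aged 8 weeks, 6 in number, without saying whether that is per library. The titles leave the Cre status unstated, and the libraries are called by those titles here. With 1 library per group there was no replicate check, and no test was run.

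TNF is an early inflammatory cytokine that is made as a membrane protein and released by the protease encoded by Adam17. It acts through TNFR1, encoded by Tnfrsf1a, which can signal both NF-kB activation and cell death, and through TNFR2, encoded by Tnfrsf1b, which is used mainly by immune cells. IL-6 binds its own receptor chain, encoded by Il6ra, and the complex then engages gp130, encoded by Il6st, which carries the signal to Jak kinases and Stat3. In the gut, macrophages and monocytes are well known makers of both cytokines, and blockade of TNF is used against inflammatory bowel disease.

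In GRCm38 all 6 genes are protein coding and overlap no other gene on their own strand. Tnf (ENSMUSG00000024401) lies at chromosome 17, 35199381 to 35202007, on the minus strand. Il6 (ENSMUSG00000025746) lies at chromosome 5, 30013114 to 30019981, on the plus strand. Tnfrsf1a (ENSMUSG00000030341) lies at chromosome 6, 125349362 to 125362484, plus strand, and Tnfrsf1b (ENSMUSG00000028599) at chromosome 4, 145213463 to 145246870, minus strand. Il6ra (ENSMUSG00000027947) lies at chromosome 3, 89864059 to 89913196, minus strand, opposite the overlapping gene Gm42809. Il6st (ENSMUSG00000021756) lies at chromosome 13, 112464070 to 112510086, plus strand.

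The 250 bases before the start sites of both cytokine genes are shown because their levels moved together across the cell classes described here. The sequences are those of RefSeq on GRCm38.p6, chr17:35202008-35202257 on the minus strand for Tnf and chr5:30012864-30013113 on the plus strand for Il6, written 5′ to 3′. Capitals mark matches to 4 motifs searched on both strands: GGNNTTTCC (NF-kB-like), TGANTCA (AP-1), TTGNGCAA (C/EBP-like) and TATAAA (the TATA box).
Tnf: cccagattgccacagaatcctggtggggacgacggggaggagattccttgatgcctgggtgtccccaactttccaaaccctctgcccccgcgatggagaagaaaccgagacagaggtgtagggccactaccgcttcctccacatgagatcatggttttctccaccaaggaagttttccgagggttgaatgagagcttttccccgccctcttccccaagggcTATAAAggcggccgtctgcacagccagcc
Il6: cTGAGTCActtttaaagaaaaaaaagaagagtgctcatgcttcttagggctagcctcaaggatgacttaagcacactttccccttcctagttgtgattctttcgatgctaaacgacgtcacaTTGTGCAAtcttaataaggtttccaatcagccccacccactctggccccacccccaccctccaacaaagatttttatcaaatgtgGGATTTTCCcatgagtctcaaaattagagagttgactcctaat

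The Tnf window held 1 match, the TATA box whose first base lies at -29 from the start site. The Il6 window held 3 matches, TGAGTCA at -249, TTGTGCAA at -128 and GGATTTTCC at -43. The 4 receptor genes held no match in windows of the same length before their RefSeq start sites. For Tnfrsf1a that window, chr6:125349473-125349722, lies inside the gene span given above, whose start differs from that of RefSeq. Of 32851 mouse promoters of this length, 4.93% held the NF-kB-like motif, 6.75% the AP-1 motif, 2.61% the C/EBP-like motif and 12.4% the TATA box. The matches are given as a description, and their use was not tested.

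The untranslated ends of cytokine messengers were also read, because the study addressed ZFP36, a protein that binds AU-rich elements and speeds messenger decay. Counts used the longest annotated 3′ untranslated region of each gene in GENCODE M21. The Tnf region, 764 bases long, held 8 copies of ATTTA and 5 copies of the longer element TTATTTATT, overlaps counted. Of 21045 genes, 7.66% held at least 1 copy of the longer element. A stretch with several of these copies, chromosome 17, 35199688 to 35199717 on the minus strand, is shown with all 3 matches inside it in capitals.
Tnf element: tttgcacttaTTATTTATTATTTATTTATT

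The Il6 region of 1668 bases held 10 copies of ATTTA and no copy of the longer element. Per 1000 bases this was 10.5 copies of ATTTA for Tnf and 5.995 for Il6, higher than 99.0% and 95.3% of the genes. The receptor genes held less of it, from 0 per 1000 bases for Tnfrsf1a to 1.60 for Il6st, beside a median of 1.24 over all genes.

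After filtering, 11885 of 12968 cells of the library titled Runx3_fl and 8167 of 8953 of the library titled Runx3 were kept, with medians of 9573 and 5731 UMIs (molecules counted once by a molecular barcode). The labels were checked against the data. Itgam, which encodes CD11b, had a UMI in only 44.6% and 38.2% of kept cells, and lymphocytes were plentiful. Xist, a transcript of female cells, was at 212 CPM (UMIs per 1000000 UMIs) in the library titled Runx3_fl and 0.183 CPM in the library titled Runx3, although the study describes male mice. A Xist UMI was found in 29.9% and 0.122% of kept cells, and the sex of each pooled animal is not known. The targeted gene, Runx3, was at 157 CPM in gated macrophages of the library titled Runx3_fl and 245 CPM in those of the library titled Runx3, counted over the whole gene, so this does not test the deleted part. A set of 37 barcodes occurred in both libraries, and without those cells all 36 ratios of gene and class kept their sign and 12 stayed past 2-fold. The differences below therefore compare these 2 libraries, and genotype, sex and library cannot be told apart in them.

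Cells were put in a class when they had at least 1 UMI of its gate and of no other gate: Csf1r with C1qa for macrophages, Csf3r for neutrophils, Flt3 for conventional dendritic cells (cDC), Ncr1 for NK cells, Cd3e for T cells and Cd79a for B cells. In the order Runx3_fl then Runx3 this gave 254 and 276 macrophages, 1378 and 1448 Csf3r-gated cells, 910 and 455 cDC, 1294 and 101 NK cells, 2838 and 389 T cells, and 353 and 1243 B cells. A further 1168 and 1599 cells passed several gates and 3690 and 2656 passed none. Of 5 markers per class that the gates did not use, all 5 were highest in their own class, except 4 of 5 for cDC in the library titled Runx3_fl. The Csf3r gate nonetheless held 2 kinds of cell: 694 and 725 of its cells also carried Csf1r, a macrophage and monocyte receptor. S100a8, a gene abundant in neutrophils, was at 676 and 6521 CPM in these against 4334 and 46371 CPM in the 684 and 723 cells without Csf1r. In both parts S100a8 was thus higher in the library titled Runx3. Cells of this gate are called Csf3r-gated cells here and are also given split by Csf1r, a split chosen after the data were seen.

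Tnf was a myeloid gene in both libraries, and its level in macrophages and Csf3r-gated cells was lower in the library titled Runx3 (plot of Tnf and Il6 by gated class). In macrophages it was at 972 CPM (exact Poisson 95% limits 938 to 1007) in the library titled Runx3_fl and 358 CPM (333 to 383) in the library titled Runx3, log2 ratio -1.44 (-1.56 to -1.33). In Csf3r-gated cells it was at 1279 CPM (1258 to 1301) and 390.0 CPM (379 to 402), log2 ratio -1.71 (-1.76 to -1.66). The intervals here and below cover counting error only, and ratios are Runx3 over Runx3_fl with 1 CPM added to both levels, while their intervals are those of the counts alone. Reads of 1 cell are not independent of each other, so true errors are wider.

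The other classes held far less Tnf, and there the order of the libraries differed. In cDC as a whole it was at 109.6 CPM (104 to 115) and 146 CPM (136 to 156), log2 ratio 0.41 (0.29 to 0.54). The cDC subsets, whose numbers changed between the libraries, differed in direction and are given below. T cells had 42.0 CPM (40.0 to 44.0) and 68.0 CPM (59.3 to 77.7), and B cells 33.4 CPM (29.1 to 38.2) and 57.5 CPM (52.5 to 62.9). NK cells had 37.2 CPM (33.7 to 40.9) and 38.3 CPM (27.4 to 52.2), with intervals that overlap. The share of NK cells with a Tnf UMI nonetheless differed, at 2.95% (2.09 to 4.02) and 9.09% (4.24 to 16.6) after thinning each cell to 2000 UMIs, and as a mean over cells the log2 ratio was 1.08. By level, the order in the library titled Runx3_fl was Csf3r-gated cells, macrophages, cDC, then T, NK and B cells, whose neighbouring intervals overlap. In the library titled Runx3 the intervals of Csf3r-gated cells and macrophages overlapped, and cDC, T and B, and NK cells followed.

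**Figure D1:**
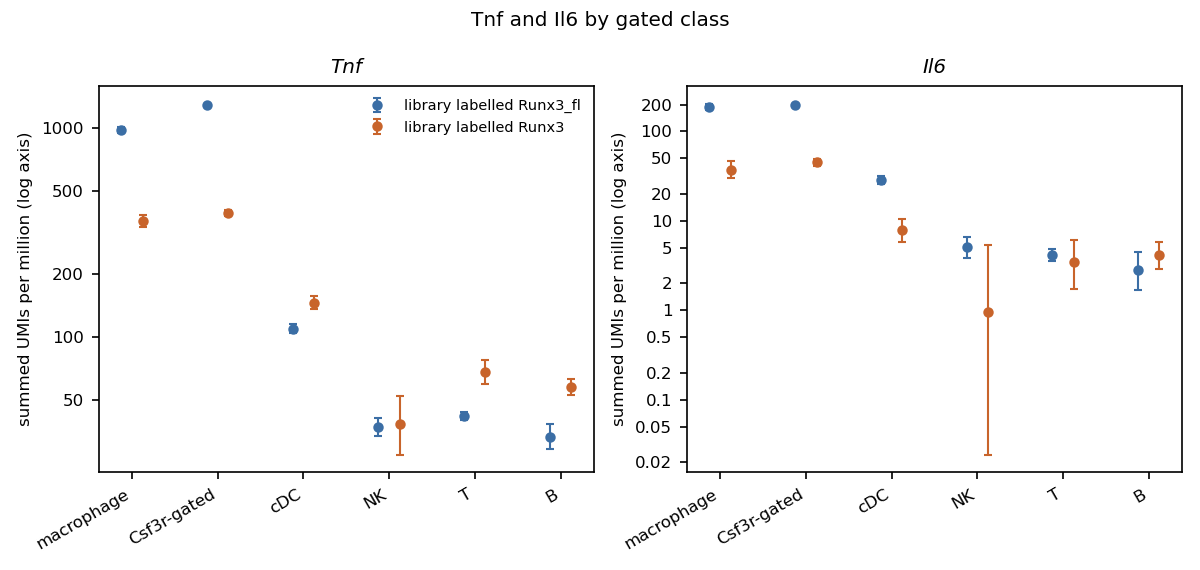
Levels of Tnf and Il6 (vertical axes, CPM of summed UMIs, log scale) in the 6 gated classes of each library, 1 point per class and library, with bars for the exact 95% Poisson interval of the count. In macrophages Tnf sits at 972 CPM in the library titled Runx3_fl and 358 CPM in the library titled Runx3, and Il6 at 187 and 37.4 CPM, while the lymphoid classes lie lower in both libraries.

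Shares of cells told the same of Tnf in macrophages. A Tnf UMI was found in 83.5% of macrophages in the library titled Runx3_fl and 68.1% in the library titled Runx3, at median depths of 12785.5 and 6380.5 UMIs. With each cell thinned to 2000 UMIs the shares were 56.9% (exact binomial interval 50.4 to 63.1, 248 cells) and 38.9% (32.5 to 45.6, 226 cells). B cells, thinned the same way, gave 4.01% and 7.50%, at median depths of 16698 and 5561 UMIs before thinning. The Tnf UMIs were concentrated: the tenth of thinned macrophages with the most Tnf held 50.9% of its UMIs in one library and 50.3% in the other.

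Il6 followed the same classes, with larger gaps between the libraries. In macrophages it was at 187 CPM (172 to 202) in the library titled Runx3_fl and 37.4 CPM (29.8 to 46.4) in the library titled Runx3, log2 ratio -2.29 (-2.67 to -1.99). Csf3r-gated cells had 196 CPM (188 to 205) and 45.0 CPM (41.2 to 49.1), a ratio of -2.10 (-2.27 to -1.98). cDC had 28.8 CPM (26.1 to 31.7) and 7.90 CPM (5.74 to 10.6), a ratio of -1.74 (-2.35 to -1.42). Over the whole cDC gate the ratios of Tnf and Il6 thus had opposite signs. Among the cDC subsets given below, this held only for cells with Cd209a. In neither library did the Il6 intervals of macrophages and Csf3r-gated cells stand apart.

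In lymphoid classes Il6 was near the floor. NK cells held 57 Il6 UMIs in the library titled Runx3_fl (5.09 CPM) and 1 in the library titled Runx3 (0.958 CPM), a ratio of -1.64 whose interval, -7.74 to 0.12, includes 0. T cells had 4.19 and 3.43 CPM and B cells 2.81 and 4.13 CPM, with overlapping intervals. As a share of the macrophage level, Il6 in NK, T and B cells was 2.73%, 2.24% and 1.505% in the library titled Runx3_fl. Il1b, a cytokine gene of myeloid cells, stood at 2.33%, 3.33% and 1.92% there, and Lyz2, the lysozyme gene of myeloid cells, at 1.66%, 2.79% and 1.21%. For the library titled Runx3 the Il6 shares were 2.56%, 9.17% and 11.04%, beside 7.16%, 10.7% and 9.87% for Il1b and 4.55%, 12.01% and 10.5% for Lyz2. In T cells the Il6 share was below both of these myeloid transcripts in each library, and in B cells it lay close to them. In NK cells it was above both in the library titled Runx3_fl and, from 1 UMI, below both in the library titled Runx3. Whether lymphoid cells express Il6 themselves was not tested, and nothing is claimed of it.

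For Tnf the same shares in NK, T and B cells were 3.83%, 4.32% and 3.44% in the library titled Runx3_fl, above both Il1b and Lyz2 in each class. They were 10.7%, 19.0% and 16.1% in the library titled Runx3, again above Il1b and Lyz2 in each class. The shares of these myeloid transcripts moved with the higher Tnf of T and B cells in that library, and their part in it was not tested. All these shares take macrophages as reference, whereas Tnf in the library titled Runx3_fl was higher in Csf3r-gated cells, at 1279 against 972 CPM. Whether lymphoid cells express Tnf themselves was not tested.

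Subsets of the myeloid gates separated the 2 cytokines (plot of the myeloid subsets). Csf3r-gated cells without Csf1r had Tnf at 1575 CPM (1529.7 to 1622) and 379 CPM (360 to 399), and those that also held Cxcr2, a chemokine receptor of mature neutrophils, at 1932 and 256 CPM. The Cxcr2 cells, 289 and 227 in number, had Il6 at 10.96 CPM (5.47 to 19.6) and 2.76 CPM (0.895 to 6.44). Csf3r-gated cells with Csf1r had less Tnf than those without it in the library titled Runx3_fl, 1166 CPM, and 396 against 379 CPM in the library titled Runx3, with overlapping intervals there, but more Il6. Their 1872 Il6 UMIs in the first library gave an interval of 239 to 262 CPM and their 458 in the second 62.2 CPM (56.6 to 68.2), against 56.0 and 12.6 CPM without Csf1r. The Cxcr2 cells were low in Il6 in both libraries. Their Tnf was above that of the whole Csf3r gate in the library titled Runx3_fl and below it in the library titled Runx3.

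Within macrophages, cells with Ly6c2, a monocyte marker that is lost as monocytes mature in the gut, had Tnf at 1073 CPM (1030.1 to 1117) in the library titled Runx3_fl, and cells without it 746 CPM (693 to 802). The values in the library titled Runx3 were 374 CPM (347 to 403) and 274 CPM (223 to 333). Il6 was at 226 and 99.6 CPM with and without Ly6c2 in the library titled Runx3_fl, and at 38.4 and 32.5 CPM, with overlapping intervals, in the library titled Runx3. The library ratio of Tnf was similar in both subsets, -1.52 (-1.64 to -1.40) with Ly6c2 and -1.44 (-1.76 to -1.14) without it. For Il6 it was -2.53 (-2.94 to -2.20) and -1.59 (-2.62 to -0.75).

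Macrophages with the inflammatory gene Il12b carried more of both cytokines in the library titled Runx3_fl, and those with Nos2 more Il6. There, 37 macrophages with Il12b, which encodes the shared subunit of IL-12 and IL-23, had Tnf at 1760 CPM and Il6 at 404 CPM, against 795 and 138 CPM in the 217 without it. The 62 macrophages with Nos2, the inducible nitric oxide synthase, had Il6 at 278 CPM, against 152 CPM without it, while Tnf was at 1009 and 958 CPM with overlapping intervals. In the library titled Runx3 only 8 macrophages held Il12b and 8 held Nos2. Macrophages without a Nos2 UMI had log2 ratios of -1.42 (-1.54 to -1.30) for Tnf and -1.98 (-2.37 to -1.65) for Il6. Their median depths were 12071.5 and 6299 UMIs, and a Nos2 transcript is more easily missed at the lower depth. The part of the Nos2 cells in the ratios was not tested.

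The same direction held in the myeloid cells outside the macrophage gate. Cells with Csf1r but no C1qa and no other gate, 712 and 671 in number, had Tnf at 635 and 298 CPM and Il6 at 155 and 36.7 CPM. Cells with Csf1r, C1qa and Csf3r together, 265 and 448, had Tnf at 1200.2 and 420.1 CPM and Il6 at 173 and 39.3 CPM. Dendritic cells were mixed, and their subsets changed in number. Those with Xcr1 were 274 and 28, those with Cd209a 125 and 142, and those with Ccr7 and Fscn1, the migratory kind, 139 and 39. With Xcr1, Tnf was at 76.5 CPM (69.8 to 83.7) and 55.3 CPM (36.7 to 79.9), log2 ratio -0.46 (-1.07 to 0.08). With Cd209a it was at 88.2 CPM (75.0 to 103) and 155 CPM (138 to 173). The migratory cells had 204 CPM (183 to 226) and 188 CPM (148 to 236). The part of these numbers in the cDC ratios of each gene was not tested. Il6 in the migratory cells was at 92.4 CPM (78.6 to 108) and 4.95 CPM (0.600 to 17.9), the second from 2 UMIs in 39 cells. Ungated cells with the mast cell and basophil genes Cpa3 or Mcpt8 were only 4 and 22, yet held Il6 at 1716 and 529 CPM, and 1.45% and 4.75% of all Il6 UMIs of their libraries. Single cells carried these values: 3 of the 4 and 6 of the 22 held any Il6, and after thinning 1 cell held 28 Il6 UMIs in the first library and 1 held 26 in the second.

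**Figure D2:**
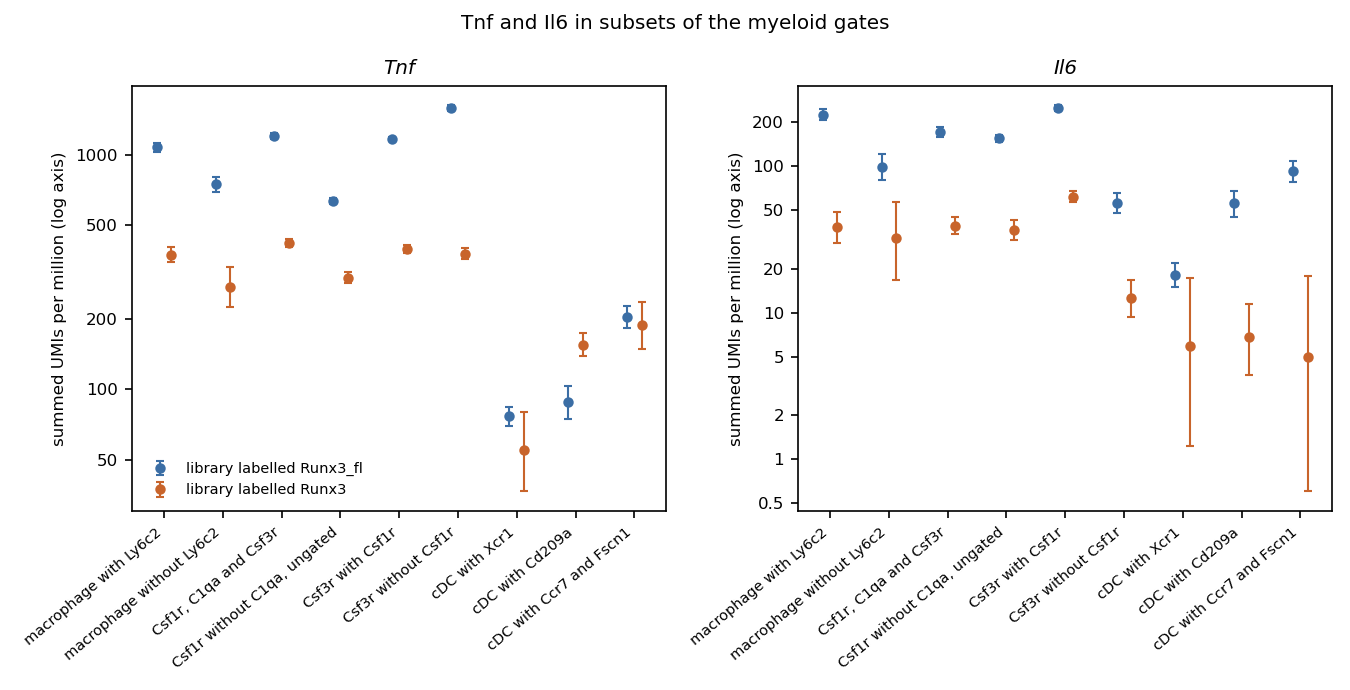
Levels of Tnf (left) and Il6 (right) in 9 subsets of the myeloid gates (vertical axes, CPM of summed UMIs, log scale), 1 point per subset and library with the exact 95% Poisson interval. Among the 9 plotted subsets (macrophages by Ly6c2, Csf1r cells outside the macrophage gate, Csf3r-gated cells by Csf1r, and cDC by Xcr1, Cd209a or Ccr7 with Fscn1) of the library titled Runx3_fl, Tnf is highest in Csf3r-gated cells without Csf1r, at 1575 CPM, and Il6 in those with Csf1r; the Cxcr2, Il12b and Nos2 subsets are not plotted.

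Whether single cells carried both cytokines was read after thinning to 2000 UMIs. In macrophages of the library titled Runx3_fl, Il6 was found in 31.2% (23.7 to 39.6) of 141 cells with a Tnf UMI and in 9.35% (4.57 to 16.5) of those without one. In the library titled Runx3 the shares were 7.95% (3.26 to 15.7) of 88 cells and 3.62% (1.19 to 8.25), with overlapping intervals. Csf3r-gated cells with Csf1r gave 25.7% (21.7 to 29.98) with Tnf and 13.5% (9.39 to 18.7) without in the library titled Runx3_fl, and 8.14% and 7.82% in the other. Those without Csf1r gave 3.59% and 5.14% in the library titled Runx3_fl, where 15 of 418 cells with Tnf also held Il6.

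Most Tnf and Il6 UMIs of each library lay in Csf3r-gated cells, in cells that passed several gates and in ungated cells. Csf3r-gated cells held 35.2% of all Tnf UMIs of the library titled Runx3_fl with 7.59% of all its UMIs, and 28.8% with 17.2% in the library titled Runx3. Macrophages held 8.19% and 5.21% of Tnf with 2.33% and 3.38% of all UMIs, and T cells 4.55% and 1.43% with 29.9% and 4.89%. Of the Il6 UMIs, 30.9% and 31.3% were in Csf3r-gated cells, 9.03% and 5.12% in macrophages and 6.52% and 2.72% in cDC. The cDC held 10.9% and 8.50% of all UMIs. Cells of several gates held 26.3% and 37.6% of Tnf and 24.3% and 34.0% of Il6, and their class is not known. They held 16.3% and 35.3% of all UMIs. Ungated cells held 18.2% of Tnf in the library titled Runx3 and 25.5% of Il6 in the library titled Runx3_fl. Their shares of all UMIs were 16.3% in the library titled Runx3 and 20.0% in the library titled Runx3_fl.

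The classes differed in size between the libraries, and whole-library levels gave another picture than the classes. The class make-up used below counts cells of several gates and ungated cells as further classes, whose inner make-up is not known. Over all kept cells Tnf was at 276 and 232 CPM, log2 ratio -0.25, although macrophages and Csf3r-gated cells each differed by more than 2-fold. When both libraries were given the class make-up of the library titled Runx3_fl the ratio of Tnf was -0.68, and with the make-up of the library titled Runx3 it was -1.01. For Il6 the whole-library levels were 48.2 and 24.7 CPM, a ratio of -0.94, and -1.40 and -1.63 at equal make-up. Il6ra was at 37.3 and 113 CPM, a ratio of 1.58, which was 1.31 and 1.11 at equal make-up. Tnfrsf1a, at 36.7 and 74.9 CPM, gave 1.01 as measured and 0.78 and 0.73 at equal make-up. Tnfrsf1b and Il6st differed little, with measured ratios of 0.11 and 0.25 that kept their sign at both make-ups.

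**Figure D3:**
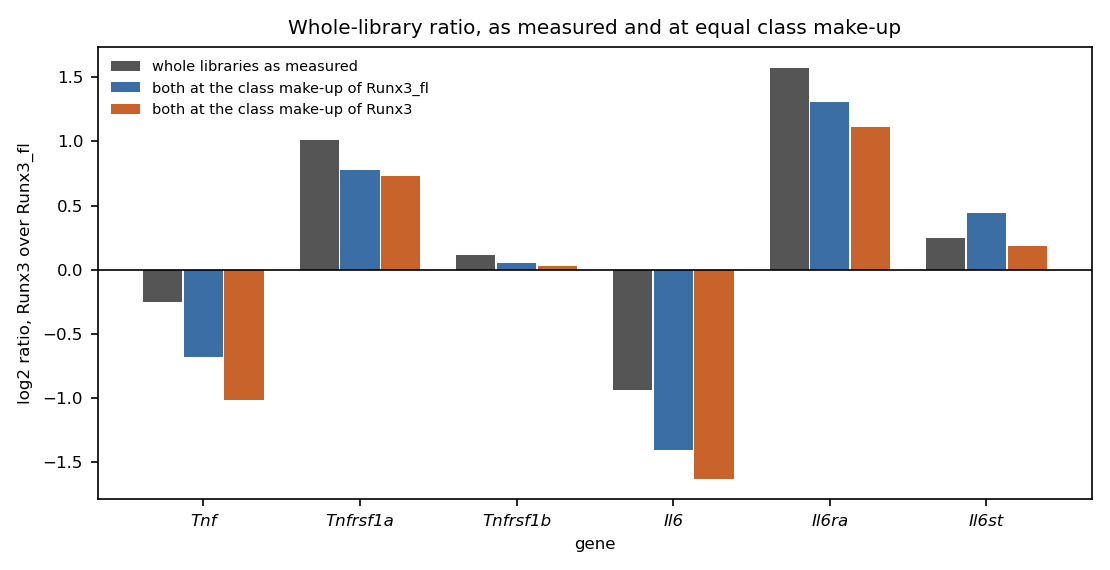
Log2 ratio of the whole-library level of each gene, Runx3 over Runx3_fl (vertical axis), as measured (grey) and with both libraries set to the class make-up of the library titled Runx3_fl (blue) or Runx3 (orange); bars start at 0. Tnf moves from -0.25 as measured to -0.68 and -1.01, and Il6 from -0.94 to -1.40 and -1.63.

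Of the TNF receptors, Tnfrsf1a was the myeloid one and Tnfrsf1b was also high in NK and T cells (plot of the receptor genes). In macrophages Tnfrsf1a reached 68.0 CPM (59.3 to 77.7) and 85.2 CPM (73.5 to 98.3), in Csf3r-gated cells 81.3 CPM (75.9 to 87.0) and 120.0 CPM (114 to 127), and in cDC 74.0 and 87.4 CPM. NK cells had 25.5 CPM (22.6 to 28.6) and 37.3 CPM (26.6 to 51.0). T cells had 9.37 CPM (8.45 to 10.4) and 36.5 CPM (30.2 to 43.8), log2 ratio 1.86 (1.65 to 2.27). B cells had the lowest level in both libraries, 2.19 CPM (1.20 to 3.67) from 14 UMIs and 15.8 CPM (13.3 to 18.7). As a share of the macrophage level, Tnfrsf1a was 13.8% and 42.8% in T cells and 3.21% and 18.6% in B cells. The Il1b and Lyz2 shares given above were also higher in the library titled Runx3. Their part in the Tnfrsf1a ratios was not tested. The myeloid classes lay close together in the library titled Runx3_fl, with overlapping neighbouring intervals, and the lymphoid classes lay below them.

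Tnfrsf1b, for TNFR2, was highest in Csf3r-gated cells, at 471 CPM (458 to 484) and 358 CPM (347 to 369), log2 ratio -0.39 (-0.46 to -0.33). The gap lay in the cells without Csf1r, which had 654 and 302 CPM and a ratio of -1.11 (-1.22 to -1.01), whereas those with Csf1r had 401 and 388 CPM and -0.05 (-0.12 to 0.02). In the Cxcr2 subset it was at 859 and 260.3 CPM. Macrophages had 261 CPM (244 to 280) and 244 CPM (223 to 265), NK cells 223 CPM (214 to 231) and 216 CPM (189 to 247), and T cells 199 CPM (195 to 204) and 203 CPM (188 to 219). In these 3 classes the ratios were -0.10, -0.04 and 0.03, with intervals from -0.26 to 0.16. In cDC it was higher in the library titled Runx3, at 103 and 164 CPM, and B cells had 28.1 and 77.7 CPM. Foxp3 T cells, the regulatory kind in which TNFR2 is known to be abundant, were 25 and 33 in number and had Tnfrsf1b at 380.3 and 281 CPM.

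**Figure D4:**
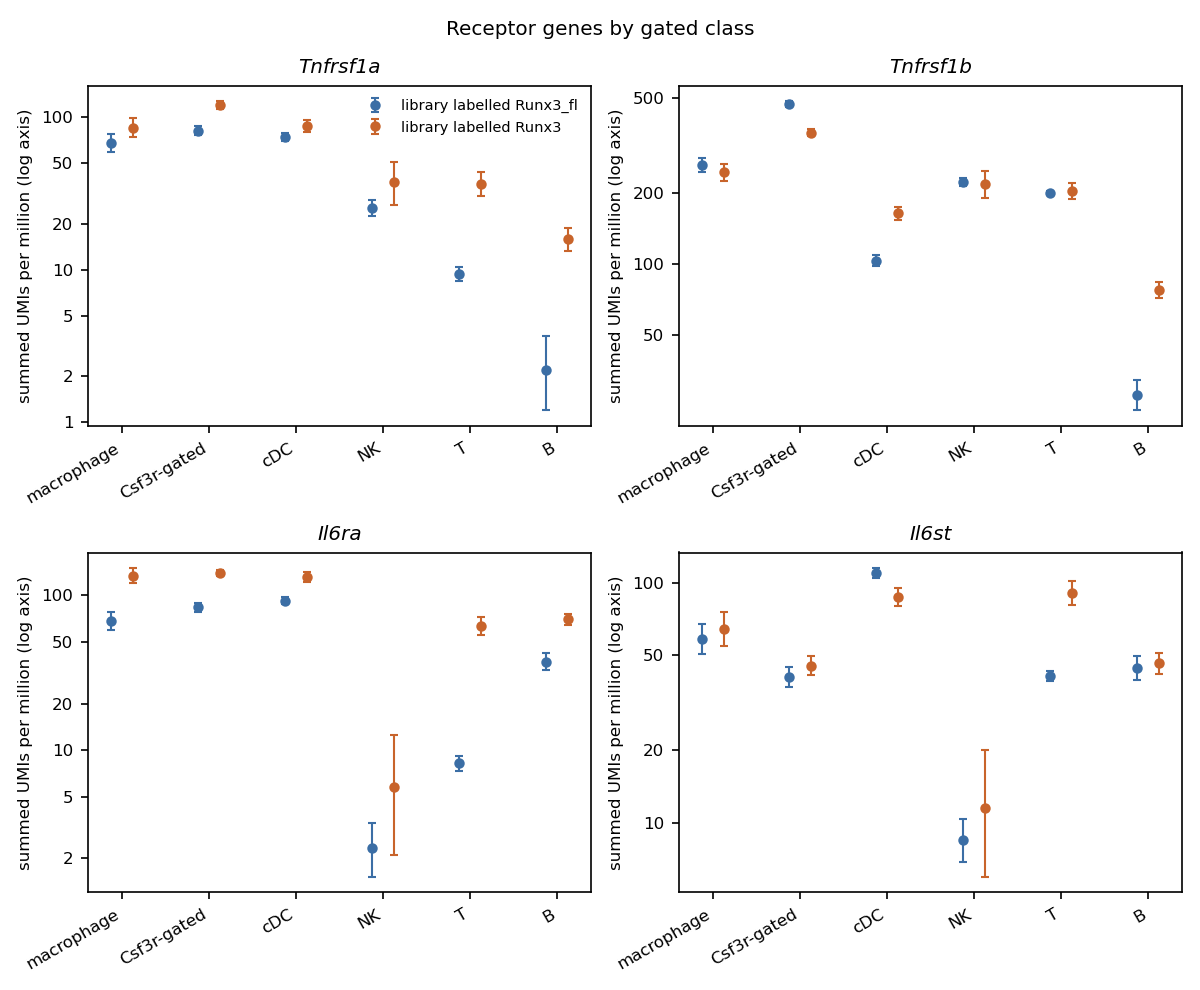
Levels of the 4 receptor genes (vertical axes, CPM of summed UMIs, log scale) in the 6 gated classes of each library, 1 point per class and library with the exact 95% Poisson interval. Tnfrsf1b is at 199 CPM or more in macrophages, Csf3r-gated cells, NK and T cells of both libraries, and Il6ra in T cells lies at 8.21 CPM in the library titled Runx3_fl and 63.7 CPM in the library titled Runx3.

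Il6ra, the ligand-binding chain for IL-6, was higher in the library titled Runx3 in each of the 6 classes, with NK the one class whose interval of the ratio included 0. In macrophages it had 68.4 CPM (59.6 to 78.1) and 134 CPM (119.6 to 151), log2 ratio 0.97 (0.72 to 1.23), and in Csf3r-gated cells at 83.9 CPM (78.4 to 89.7) and 139.6 CPM (133 to 147). In cDC it had 92.4 CPM (87.6 to 97.5) and 132 CPM (123 to 142), and in B cells at 37.3 CPM (32.7 to 42.4) and 70.3 CPM (64.7 to 76.2). NK cells had the lowest level, 2.32 and 5.75 CPM from 26 and 6 UMIs. T cells had 8.21 CPM (7.36 to 9.14) and 63.7 CPM (55.2 to 73.0), a ratio of 2.81 (2.70 to 3.21), the largest of the 36 pairs of gene and class.

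The T cell difference in Il6ra was also seen inside T cell subsets. T cells with Cd4 had 8.73 CPM from 170 UMIs and 61.6 CPM from 67, a ratio of 2.69 (2.39 to 3.24). T cells with Cd8a had 4.54 CPM from 81 UMIs and 52.6 CPM from 37, a ratio of 3.27 (2.93 to 4.11). Those with neither had 20.2 and 72.3 CPM, a ratio of 1.79 (1.42 to 2.27). With T cells thinned to 2000 UMIs, 1.81% (1.35 to 2.37) and 11.7% (8.56 to 15.5) held an Il6ra UMI, against 0.155% and 1.01% of NK cells. Il6ra in T cells of the library titled Runx3 was 47.4% of the macrophage level, while Lyz2 was 12.01%, Il1b 10.7% and C1qa 1.53%. S100a8 was at 119.6 CPM in those T cells and 20311 CPM in Csf3r-gated cells of that library, and at 4.19 and 1686 CPM in the library titled Runx3_fl. The neutrophil and macrophage transcripts thus moved with the library as well, at smaller shares of their own class level than Il6ra, and their part in it was not tested.

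Il6st, the gp130 chain shared by the receptors of the IL-6 family, was found in every class, and NK cells were lowest, at 8.49 CPM (6.87 to 10.4) and 11.5 CPM (5.94 to 20.1). It was highest in cDC of the library titled Runx3_fl, at 110.0 CPM (105 to 115), where the library titled Runx3 had 87.4 CPM (79.8 to 95.6), log2 ratio -0.33 (-0.48 to -0.18). The cDC subsets did not share 1 direction. The ratio was -0.06 (-0.47 to 0.33) with Xcr1, -0.40 (-0.71 to -0.11) with Cd209a and 0.40 (-0.14 to 0.92) with Ccr7 and Fscn1. T cells had 40.8 CPM (38.9 to 42.9) and 90.8 CPM (80.7 to 102), a ratio of 1.13 (0.97 to 1.33). T cells with Cd4 gave 42.9 and 128 CPM, while those with Cd8a gave 39.0 and 54.0 CPM and a ratio of 0.46 (-0.04 to 0.94). Foxp3 T cells had 296 and 243 CPM, above the T class as a whole in both libraries, with a ratio of -0.29 (-0.74 to 0.17). They were 25 of 2838 T cells in the library titled Runx3_fl and 33 of 389 in the library titled Runx3. Of the Il6st UMIs of the T class they held 81 of 1666 and 88 of 291. The part of this make-up in the T cell ratio was not tested. Macrophages (58.6 and 64.5 CPM), Csf3r-gated cells (40.5 and 45.2 CPM) and B cells (44.2 and 46.3 CPM) had overlapping intervals between the libraries.

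The B cell values need their make-up beside them. The B gate of the library titled Runx3_fl held more plasma cell transcript, with Jchain, the joining chain of secreted antibody, at 13876 CPM against 7398 CPM, and Ms4a1, which encodes CD20 of mature B cells, at 60.4 against 237 CPM. In B-gated cells with Ms4a1, 110 and 743 in number, the log2 ratios were 0.19 (-0.21 to 0.60) for Tnfrsf1b, 0.07 (-0.30 to 0.45) for Il6ra, 0.23 (-0.32 to 0.83) for Tnf and 1.36 (-0.01 to 3.95) for Tnfrsf1a, each with an interval that includes 0. Over the whole B gate they were 1.44 (1.23 to 1.71), 0.90 (0.69 to 1.14), 0.77 (0.55 to 1.02) and 2.40 (2.06 to 3.77). In B-gated cells without Ms4a1, 243 and 500, they were 1.95, 0.91, 1.36 and 3.13.

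Over the 36 pairs of gene and class, 12 differed by at least 2-fold, 6 higher and 6 lower in the library titled Runx3 (plot of the log2 ratios). By gene and class, the lower ones were Tnf and Il6 in macrophages and in Csf3r-gated cells, and Il6 in cDC and NK cells. The higher ones were Tnfrsf1a, Il6ra and Il6st in T cells, Tnfrsf1a and Tnfrsf1b in B cells, and Il6ra in NK cells. Both NK pairs rest on few UMIs and have intervals that include 0. Il6st in T cells comes with a changed share of Foxp3 cells, given above. Tnfrsf1a in T and B cells and Il6ra in T cells come with higher shares of myeloid transcripts, also given above. In all, 17 intervals lay above 0 and 7 below. The same count was not made for all genes, whose median lay above 0 in each class, so it is not read as a trait of these genes.

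These counts are to be read against all genes with at least 10 UMIs over both libraries. In macrophages 15.5% of 11556 genes were at least 2-fold higher in the library titled Runx3 and 3.53% at least 2-fold lower, beside 0 and 2 of the 6 genes. In Csf3r-gated cells the shares were 13.6% and 2.5% of 14901 genes, beside 0 and 2. In cDC they were 9.14% and 1.88% of 13855 genes, beside 0 and 1, and in NK cells 7.4% and 5.95% of 12267 genes, beside 1 and 1. In T cells they were 13.5% and 7.26% of 15100 genes, beside 3 and 0, and in B cells 20% and 12.7% of 13747 genes, beside 2 and 0. The median gene itself had a log2 ratio of 0.24 in macrophages, 0.33 in Csf3r-gated cells, 0.16 in cDC, 0.05 in NK, 0.10 in T and 0.26 in B cells. Relative to it, Tnf and Il6 in macrophages lay further down, at -1.68 and -2.53, and Il6st in macrophages changed sign to -0.11, in Csf3r-gated cells to -0.18 and in B cells to -0.19. Tnfrsf1b in T cells and Tnf in NK cells changed sign too, to -0.07 and -0.01, from ratios whose intervals include 0.

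**Figure D5:**
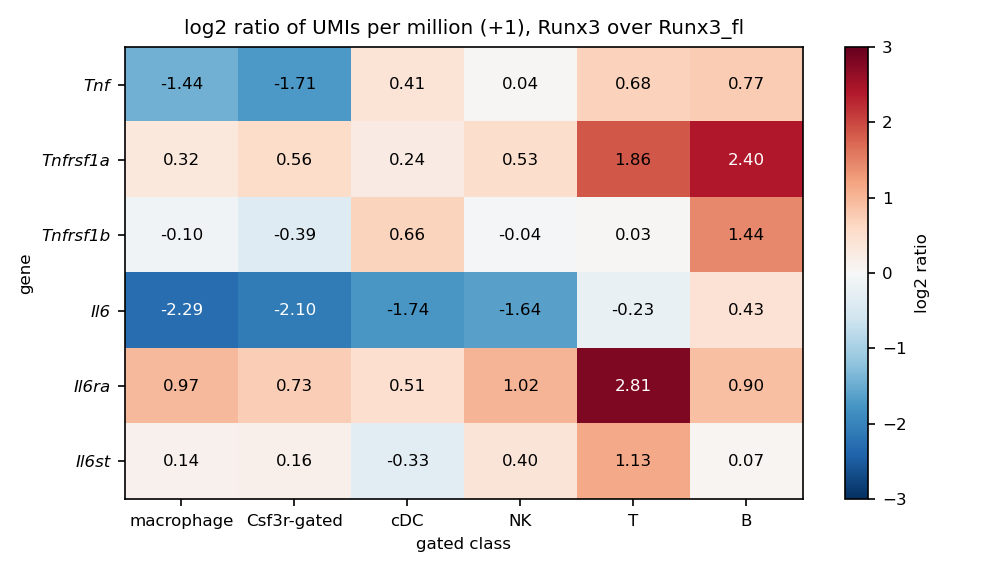
Log2 ratio of CPM plus 1, Runx3 over Runx3_fl, for the 6 genes (rows) in the 6 gated classes (columns), coloured from blue (lower in the library titled Runx3) to red (higher). Tnf and Il6 are blue in macrophages (-1.44 and -2.29) and Csf3r-gated cells (-1.71 and -2.10), and Il6ra is red in all classes, up to 2.81 in T cells.

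Other genes of the TNF pathway were read from a list of 19, and 18 had at least 10 UMIs in macrophages. None was at least 2-fold higher in the library titled Runx3 and 2 were at least 2-fold lower, beside 15.5% and 3.53% of all genes, with a median log2 ratio of -0.16 beside 0.24 for all genes. The lowest was Cflar, for the caspase-8 inhibitor c-FLIP, at 1016.5 and 404 CPM, a ratio of -1.33, and the highest with at least 50 UMIs was Ltb, for lymphotoxin beta, at 8.50 and 15.8 CPM, 0.82. The other one past 2-fold, named after its value was seen, was Tnip1, an inhibitor of NF-kB signalling, at 374 and 184 CPM. In Csf3r-gated cells 1 was higher and 3 were lower of 19, beside 13.6% and 2.5% of all genes. In cDC they were 0 and 1 of 19, beside 9.14% and 1.88%. In NK cells 0 and 0 of 17 passed, beside 7.4% and 5.95% of all genes, in T cells 3 and 0 of 19, and in B cells 7 and 0 of 19. The median was 0.34 in T cells and 0.66 in B cells, beside 0.10 and 0.26 for all genes, of which 13.5% were higher and 7.26% lower in T cells and 20% and 12.7% in B cells.

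From a list of 19 genes of the IL-6 family and its signalling, 17 had at least 10 UMIs in macrophages, 2 were at least 2-fold higher in the library titled Runx3 and 2 lower, with a median of 0.13. Over all genes 15.5% were higher and 3.53% lower there, with a median of 0.24. The lowest was Il27, for a subunit of the cytokine IL-27, at 33.4 and 13.1 CPM, a ratio of -1.29, and the highest was Il11ra1, for the IL-11 receptor, at 6.30 and 18.0 CPM, 1.38. Jak2, a kinase that gp130 receptors use, was also lower, at 687 and 322 CPM, named after its value was seen. The other one past 2-fold upward, also named after its value was seen, was Pias3, an inhibitor of Stat3, at 2.20 and 5.41 CPM from 7 and 12 UMIs, with an interval of the log2 ratio, -0.17 to 2.88, that includes 0. Of the tested list genes, 1 was higher and 1 lower of 18 in Csf3r-gated cells, 2 and 0 of 17 in cDC, 2 and 0 of 16 in NK, 6 and 1 of 18 in T, and 8 and 0 of 18 in B cells, to be read against the shares of all genes given for each class.

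Across the 12 sums of 6 classes and 2 libraries, Tnf and Il6 had a Pearson correlation of 0.95 on log2(CPM + 1), and Il6ra and Il6st one of 0.84. The lowest among the 15 pairs of the 6 genes was -0.15, for Tnfrsf1b and Il6st. These correlations share cells, libraries and depth and are given as descriptions. Among 10408 genes at 10 CPM or more in at least 1 sum, the 5 most like Tnf were Calhm6, Fth1, Il1rn, Ptgs2 and Clec4n, at 0.99 each. Those most like Il6 were Met, Ptgs2os, Ptgs2, Prdx5 and Gk, at 0.96 to 0.98. Ptgs2, for the prostaglandin enzyme COX-2, was on both lists. The receptor genes were most like Zswim4 (Tnfrsf1a, 0.97), Lcp2 (Tnfrsf1b, 0.96), Arhgef11 (Il6ra, 0.96) and Got1 (Il6st, 0.94), and nothing is read from these likenesses about shared control.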

How the data were processed

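Single-cell RNA libraries of mouse colon lamina propria, 1 per group, were made by the authors on the 10x platform (3' kit, chemistry version 3). The deposited values are whole-number UMI counts per gene and cell, not normalized, from Cell Ranger 7.1.0 per the file headers. Build mm10 and Seurat 4 are in the submitters' processing notes, and the annotation was not given in the sources used here. Barcodes not called cells had been removed. Of 32285 gene IDs, 32235 are in GENCODE M21 (GRCm38), used for coordinates.

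Kept cells had 200 to 6000 genes and at most 15% mt- UMIs, as the study states; the gene limit and the exclusive gates were the only treatment of doublets. Total counts were 146204416 and 75478164 UMIs. UMIs were summed per class and given as CPM with exact Poisson intervals; shares have Clopper-Pearson intervals at 95%. Cells were thinned to 2000 UMIs, leaving out 616 and 1868 kept cells. Ratios add 1 CPM, and at least 2-fold with 10 UMIs over both libraries was the limit for a difference. The ratio step was tested on simulated counts. The named genes were the 6 genes, both pathway lists with the lowest and highest of each in macrophages, and the 5 nearest patterns per gene. These members and lists were chosen with earlier results of these data known. Nothing in the labels ties cells to animals, so no p-value is given. Python 3.11.15, numpy 2.4.6, scipy 1.17.1 and pandas 2.3.3 were used.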

Additional observations from a re-analysis of the deposited data

Results flagged for a closer look

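In 3 genes the difference between the libraries ran in opposite directions between cell classes, with intervals off 0 on both sides. The classes with the lowest and highest ratio are named first. Tnf was lower in the library titled Runx3 in Csf3r-gated cells (log2 ratio -1.71) and higher in B cells (0.77). Its intervals were off 0 in macrophages (-1.44), cDC (0.41) and T cells (0.68) too. Tnfrsf1b was lower in Csf3r-gated cells (-0.39) and higher in B cells (1.44), and also higher in cDC (0.66). Il6st was lower in cDC (-0.33) and higher in T cells (1.13). Its ratio was -0.06 in cDC with Xcr1, -0.40 with Cd209a and 0.40 with Ccr7 and Fscn1. In Foxp3 T cells it was -0.29, with an interval that includes 0. With 1 library per group the difference between the classes was not tested. For both B cell values, the subset with Ms4a1 had intervals that include 0, and with cells of at most 4000 genes Tnf in B cells was at -0.59.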

How the results depend on the processing

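Of 13 alternatives, 11 were planned and 2 were chosen after seeing the data (no shared barcodes, and the Csf3r gate without Csf1r). All 12 differences past 2-fold kept their sign in each alternative run for them, and 8 stayed past 2-fold in each. The other 4 were Il6 and Il6ra in NK cells, Il6st in T cells (down to 0.77 with overlapping gates) and Tnfrsf1b in B cells (down to 0.48 with at most 4000 genes per cell). The count ran from 9 with 10 CPM added to 14 with gates of at least 2 UMIs. For macrophages, Tnf moved to -1.58 with gates of at least 2 UMIs, to -1.68 with the median gene at 0 and to -1.17 as a mean over cells, and Il6 to -1.93 as a mean over cells. Among ratios under 2-fold some changed sign, among them Tnf and Il6 in B cells (-0.59 and -1.22 with at most 4000 genes per cell) and Il6st in macrophages (-0.65 when thinned); the causes were not tested. No paired analysis was possible because each group has 1 library. No library could be left out for the same reason. Depth limits Il6, Il6ra and Il6st in NK cells of the library titled Runx3 (101 cells), and intervals cover counting error only.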

Other observations

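Ungated cells with Jchain, a plasma cell transcript, numbered 672 and 1030. They had Tnf at 243 and 277 CPM and Il6 at 74.3 and 43.8 CPM, near the values of all ungated cells, 273 and 259 CPM for Tnf and 61.2 and 36.3 CPM for Il6.

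In T cells with neither Cd4 nor Cd8a, 453 and 198 cells, the summed level of Tnf and the share of cells with Tnf ran in opposite directions. The level was 150.4 CPM (139 to 162) in the library titled Runx3_fl and 75.7 CPM (62.2 to 91.4) in the library titled Runx3, whereas 22.3% and 30.8% of the cells held a Tnf UMI. After thinning the shares were 10.5% (7.76 to 13.7) and 14.2% (9.32 to 20.4), with overlapping intervals. In the library titled Runx3_fl the tenth of thinned cells with the most Tnf held 98.2% of its UMIs, with up to 21 in 1 cell, so the summed level rests on few cells.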
